A study of Mus musculus with 2 samples.

Results

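Cells with high S-phase gene expression were taken from among the non-pluripotent cells of a reprogramming culture, in which fibroblasts are converted to induced pluripotent stem cells (iPSCs). Each gene's deposited value was scaled over all cells, and the scaled values of Neil3, Dtl, Atad2, Tk1, Rad51ap1, Clspn and Ccne2 were averaged into an S-phase score. Non-pluripotent cells were those with fewer than 3 of the 5 genes Utf1, Tdgf1, Tdh, Nanog and Dppa4 above 0. The 600 such cells with the highest score, out of 6466 non-pluripotent and 7023 cells in all, are called S-phase cells here. They were chosen by measured values, so the levels of these 12 genes are described without a test.

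The series held 2 droplet single-cell libraries of unsorted mouse cells at day 16, both in 1 group, with 3109 cells in replicate 1 and 3914 in replicate 2. The starting cells were mouse embryonic fibroblasts carrying STEMCCA, a transgenic cassette of reprogramming factors that doxycycline switches on, and all cells had been grown with doxycycline, ascorbic acid, serum and LIF. The study speaks of independent transgenic STEMCCA systems, and the labels do not say which system, animal or culture gave which library, nor do they give the sex or age of the animals. The p-values below therefore rest only on how far set differences varied between these 2 libraries, with that spread shared among genes. They do not measure each gene's own spread alone, and the spread cannot be assigned to animals or cultures. Median depths were 15625 and 14292 UMIs (unique molecular identifiers, 1 per captured RNA molecule) per cell.

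In S phase a cell copies its genome. Origins are first licensed in G1 by loading of the MCM helicase, and the E2F transcription factors, once released from the retinoblastoma protein, switch on the genes for licensing, polymerases, nucleotides and histone handling. CDK inhibitors hold this step back, and the cyclin B and Aurora kinase programmes follow later, towards mitosis. Fibroblasts that are to become iPSCs are known to divide quickly, while senescent fibroblasts stop dividing and raise Cdkn2a, Cdkn2b and secreted proteases.

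Several promoters of these genes carry the letters that E2F proteins are known to bind, and 6 stretches of 90 bases are printed to show them. Dtl and Clspn belong to the score, and Pclaf had the largest increase of any gene tested. Mcm5 and Mcm6, for subunits of the MCM helicase, and Hells, for a remodeller, are described below. The letters searched on both strands were TTTCCCGC, TTTCGCGC, TTTGCCGC and TTTGGCGC, and capitals mark each match, with 2 overlapping matches in the Mcm5 and Mcm6 stretches. Sequences are RefSeq promoter windows of assembly GRCm38.p6, printed 5′ to 3′ on the strand of the gene.
Pclaf (chr9:65890263-65890352, plus strand): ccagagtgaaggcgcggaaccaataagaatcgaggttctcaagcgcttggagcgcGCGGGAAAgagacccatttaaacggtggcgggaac
Dtl (chr1:191575515-191575604, minus strand): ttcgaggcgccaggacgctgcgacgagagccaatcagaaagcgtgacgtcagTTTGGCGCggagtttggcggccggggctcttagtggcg
Clspn (chr4:126556920-126557009, plus strand): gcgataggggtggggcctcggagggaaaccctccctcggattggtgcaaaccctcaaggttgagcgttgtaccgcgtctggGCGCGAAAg
Hells (chr19:38930887-38930976, plus strand): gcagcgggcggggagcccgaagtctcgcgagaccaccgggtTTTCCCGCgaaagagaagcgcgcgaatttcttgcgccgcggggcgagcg
Mcm5 (chr8:75109315-75109404, plus strand): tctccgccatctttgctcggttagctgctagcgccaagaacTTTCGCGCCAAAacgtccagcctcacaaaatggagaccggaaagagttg
Mcm6 (chr1:128359767-128359856, minus strand): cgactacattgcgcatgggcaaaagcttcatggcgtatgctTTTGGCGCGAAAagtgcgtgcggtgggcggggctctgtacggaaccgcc

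Windows of 300 bases, from 250 before to 50 after each start, were matched for 131 of the 161 genes that rose at least 2-fold in S-phase cells, and 33 of their 152 windows (21.7%) held the E2F letters. The share was 4.25% of the windows of all genes tested and 2.26% of all 32851 windows in the reference. Among genes called lower it was 1.80%. CCAAT, the letters bound by NF-Y, stood in 61.2% of the windows of the 161 genes against 37.5% for all genes tested. The letters of the cell-cycle homology region (TTTGAA or TTCGAA), an element of late cell-cycle genes, stood in 33.6% against 13.9%. The 19 matched genes that were at least 2-fold lower in S-phase than in mitotic cells had 21 windows. Of these, 57.1% held the cell-cycle homology letters, 76.2% held CCAAT and 0 held the E2F letters. With a share of only 4.25% over all genes tested, a 0 among 21 windows is not read as a difference. These shares describe the windows and were not tested, and many promoters of replication genes, those of Rrm2, Pcna and E2f1 among them, held none of the 4 exact E2F sequences.

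S-phase cells numbered 305 in replicate 1, or 9.81% of its cells (95% exact Clopper-Pearson interval 8.79 to 10.9), and 295 in replicate 2, or 7.54% (6.73 to 8.41). The intervals cover counting error only. Of the non-pluripotent cells alone the shares were 10.3% (9.27 to 11.5) and 8.39% (7.49 to 9.35). With 1 group there was no condition to compare. The score ended in a continuum, not at a gap: the last member scored 1.29275 and the first cell outside 1.29267, with 83 members and 95 other cells within 0.1 of the limit. All members had at least 4 of the 7 score genes above 0, and 139 had all 7, whereas 3282 of the 5866 other non-pluripotent cells had none.

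S-phase cells were deeper than the cells around them. The median was 19168 and 18426 UMIs per S-phase cell in the 2 libraries, against 14563.5 and 13128.5 in the other non-pluripotent cells. Against comparison cells matched on UMIs, the 20 largest increases had log2 folds of 1.34 to 2.07 and the 15 largest decreases -1.82 to 0.04. The values of 3 and 5 of these genes moved by more than 1.5-fold and are given below. Mitochondrial RNA made up 3.96% and 3.84% against 4.08% and 4.11% (medians). A score from cells thinned to 3000 UMIs each kept 367 of the 600 members (61.2%). The study names no removal of doublets, and no caller was run here. The libraries shared 12 cell barcodes, and 4 members had such a barcode. In the pluripotent gate, with 3 or more of the 5 genes above 0, there were 557 cells, of which only 2 in replicate 1 and 1 in replicate 2 passed the same score limit.

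The 7 score genes themselves, as the rule fixes, were high in members. Tk1, the thymidine kinase that salvages thymidine for DNA, had 2.64 and 2.77 mean UMIs per 10000 in the S-phase cells of replicates 1 and 2 and 0.415 and 0.425 in the other non-pluripotent cells. Atad2, a chromatin ATPase, had 1.61 and 1.57 against 0.226 and 0.199, and Ccne2, a partner of CDK2 at the start of S phase, had 0.715 and 0.546 against 0.0323 and 0.0300. When each gene was left out and the cells were chosen by the other 6, that gene was still 4.65 to 8.80 times higher in the chosen cells, with the lowest ratio for Dtl in replicate 2 and the highest for Clspn in replicate 1.

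The label was checked on other genes. Of 36 further S-phase genes in the table, 27 were expressed enough to test, and all 27 were higher in S-phase cells than in the other non-pluripotent cells of the same library (limma, adjusted p below 0.05 over all genes tested, median log2 fold 1.52), where 23.8% of all genes tested were higher. Of these 27, 1 passed the minimum only through the S-phase cells and had to be higher. Of 50 G2/M genes, 41 were tested and 40 were also higher (median 1.16). Against the 600 remaining non-pluripotent cells with the highest mean of Cdc20, Ccnb1, Plk1, Cenpf, Cenpe, Aurka and Kif20a, here called mitotic cells, all 27 S-phase genes were higher (median 0.70) and 37 of the 41 G2/M genes were lower (median -0.58), where 10.7% of all genes tested were higher and 12.5% lower. Both sets were chosen by scores of such genes, so these directions follow in large part from the choice. Of the members, 86 (14.3%) were also among the 600 highest mitotic scores, and the label S-phase is kept as the name of the rule.

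Against the other non-pluripotent cells, 1684 of the 7080 genes tested were higher in S-phase cells (23.8%) and 1835 were lower (25.9%), by limma on log2(mean UMIs per 10000 + 0.1) with the library as a block and Benjamini-Hochberg adjustment. Genes with a mean of at least 0.1 were tested, and the 12 genes of the rule were left out. In 25 of the tested genes the other cells were below 0.1 in both libraries. These passed the minimum only through the S-phase cells and had to be higher, as all 25 were. Of the 3519 called genes, 3513 differed in the same direction in both libraries. The median log2 fold over all genes was -0.015. Most differences were small: 161 called genes were at least 2-fold higher and 30 at least 2-fold lower. Genes that go up and down with the 7 score genes in the cell cycle had to differ between sets chosen in this way, so the percentages called are the background for every count below and the counts themselves are descriptions of the chosen cells.

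**Figure D1:**
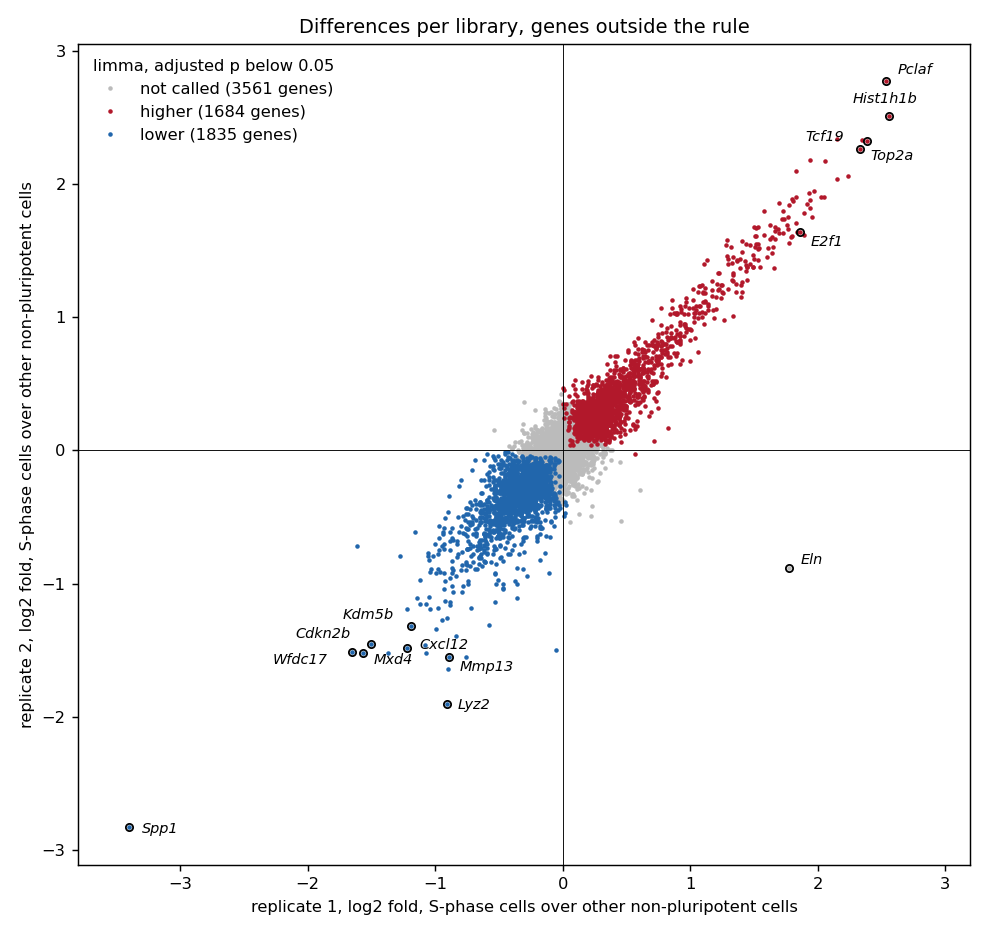
Each point is 1 of the 7080 tested genes, placed by its log2 fold between S-phase and other non-pluripotent cells in replicate 1 (horizontal) and replicate 2 (vertical), with the 1684 genes called higher in red and the 1835 called lower in blue. Pclaf stands at 2.54 and 2.77 and Spp1 at the opposite end, while Eln, which was not called, stands at 1.78 and -0.88, higher in 1 library and lower in the other.

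Pclaf, listed as 2810417H13Rik, had the largest increase. The gene lies on chromosome 9 (65890237 to 65903266 of GRCm38, plus strand) and encodes a small protein that binds the sliding clamp PCNA at the fork. Its level was 6.30 and 7.51 mean UMIs per 10000 in S-phase cells, 0.998 and 1.02 in the other cells, and 4.14 and 4.43 in mitotic cells. The log2 fold over the other cells was 2.66 (SE 0.05, adjusted p = 3.3e-22 by limma), and 1.98 against cells matched on UMIs, where Top2a had 1.55 in place of 2.30 and Mki67 1.34 in place of 1.96. All 295 members of replicate 2 and 303 of the 305 of replicate 1 had a UMI of it, so the groups differed in most cells and not in a few. In cells of the pluripotent gate the level was lower than in any other set, at 0.652 and 0.455.

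The sliding clamp and its partners rose together. Pcna, the clamp, had 1.33 and 1.10 in S-phase cells against 0.273 and 0.239 (log2 fold 1.88), and Lig1, which seals Okazaki fragments, 2.72 and 2.42 against 0.498 and 0.506 (2.15). The clamp loader subunits Rfc1 to Rfc5 were all higher, with log2 folds between 1.17 and 1.42, and the single-strand binding subunits Rpa1 and Rpa2 had 1.30 and 1.76. Pola1, Prim1 and Prim2, the polymerase that primes each strand, had 1.41, 1.45 and 1.12. Of 28 listed genes for polymerases, clamp and ligase, 22 were tested, of which 1 passed the minimum only through the S-phase cells and had to be higher. In all, 20 were higher and 2 were lower (median 1.25). The exceptions were Pold4, the small accessory subunit of polymerase delta, at 0.480 and 0.620 against 0.968 and 1.00 (log2 fold -0.75, adjusted p = 8.7e-10), and Top1, a topoisomerase, with a log2 fold of -0.21. The other polymerase delta subunits, Pold1, Pold2 and Pold3, were higher (1.30, 0.96 and 1.16).

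Origin licensing genes showed a similar rise. Of 15 listed, 12 were tested and 11 were higher (median 1.51). The 6 subunits of the MCM helicase had log2 folds of 1.51 (Mcm2), 1.67 (Mcm3), 1.41 (Mcm4), 1.75 (Mcm5), 1.71 (Mcm6) and 1.51 (Mcm7). Mcm6, as an example, had 1.67 and 1.58 in S-phase cells against 0.419 and 0.435, and the values of the 2 sets did not overlap between libraries. Cdt1, the loader of the helicase, had 0.559 and 0.519 against 0.110 and 0.114, and Gmnn, which encodes the Cdt1 inhibitor geminin, 1.45 in both libraries against 0.307 and 0.305 (1.93). Loader and inhibitor were thus both high in the same set of cells. Within the origin recognition complex the differences were smaller: Orc6 had 0.95, Orc2 0.60, Orc3 0.28 and Orc4 0.00, and Orc4 did not pass the test. Of the helicase activation and fork genes only Gins2, Tipin, Dbf4 and Gins4 were expressed enough to test, and all 4 were higher (1.68, 1.63, 1.11 and 0.76).

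Nucleotide supply genes divided by function. Those for deoxynucleotides stood highest: Rrm2, the regulated subunit of ribonucleotide reductase, had 2.02 and 1.68 against 0.315 and 0.255 (log2 fold 2.34, SE 0.06), Tyms, thymidylate synthase, had a log2 fold of 1.81, Dut 1.56, Rrm1 1.28 and Dtymk 1.05. The general purine and pyrimidine genes moved little, with 0.45 for Gart, 0.34 for Cad, 0.23 for Paics and 0.15 for Impdh2. In all, 16 of the 17 tested genes of this list of 20 were higher (median 0.51). Samhd1, which breaks down deoxynucleotides, did not pass the test, with a log2 fold of 0.05 (adjusted p = 0.60 by limma) and levels of 0.265 and 0.228 against 0.247 and 0.222.

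Histone genes and their handlers followed. Slbp, which binds the stem-loop that ends replication histone mRNAs, had 1.96 and 2.09 against 0.481 and 0.484 (1.87). The chromatin assembly factor subunits Chaf1a and Chaf1b had log2 folds of 1.68 and 1.86, Asf1b 1.77 and Nasp 1.47, and 18 of the 19 tested genes of this group were higher (median 1.00). Linker histone genes Hist1h1b and Hist1h1e had 1.22 and 0.988 against 0.124 and 0.0911 (2.53), and 1.04 and 0.851 against 0.156 and 0.131 (2.09). Hist1h2ap was also higher (2.25), though its reads may be shared with near-identical histone copies. Hist1h2bc moved the other way, with 0.477 and 0.249 against 0.958 and 0.559 (log2 fold -0.89). The library preparation captured polyadenylated RNA, whereas replication histone mRNAs mostly lack a poly(A) tail, and 15 of 20 listed histone genes were too low to test.

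Genes for maintenance of DNA methylation and of sister chromatids were also mostly higher than in the other non-pluripotent cells. The medians of these lists against mitotic cells were smaller and are given below. Uhrf1, which reads newly copied methylated sites, had 0.936 and 0.954 against 0.165 and 0.173 (log2 fold 1.96), Dnmt1, the maintenance methyltransferase, had a log2 fold of 1.74, and Hells, a remodeller needed for methylation of repeats, 1.98. The de novo enzyme Dnmt3a had -0.03 and did not pass the test. Among Polycomb genes Ezh2 was higher (1.52) and its paralog Ezh1 lower (-0.19), and Jarid2 was lower (-0.33). In all, 8 of the 14 tested DNA methylation and Polycomb genes were higher, 2 were lower and 4 were not called (median 0.70). Of 18 tested cohesin and condensin genes 17 were higher (median 0.96), led by Esco2, the S-phase cohesin acetyltransferase, with 0.647 and 0.689 against 0.0792 and 0.0757 (2.11). Of the 17, 3 passed the minimum only through the S-phase cells, Esco2 and Cdca5 among them. Nipbl, the cohesin loader, did not pass the test (0.14). Repair genes were sparser. Of 28 listed for homologous recombination and Fanconi repair only 4 were tested, 3 of which passed the minimum only through the S-phase cells, so no count is drawn from them. Brca2, as an example, had 0.309 and 0.269 against 0.0877 and 0.0805. Of 9 tested mismatch and base excision repair genes 6 were higher and 3 were not called (median 0.40).

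**Figure D2:**
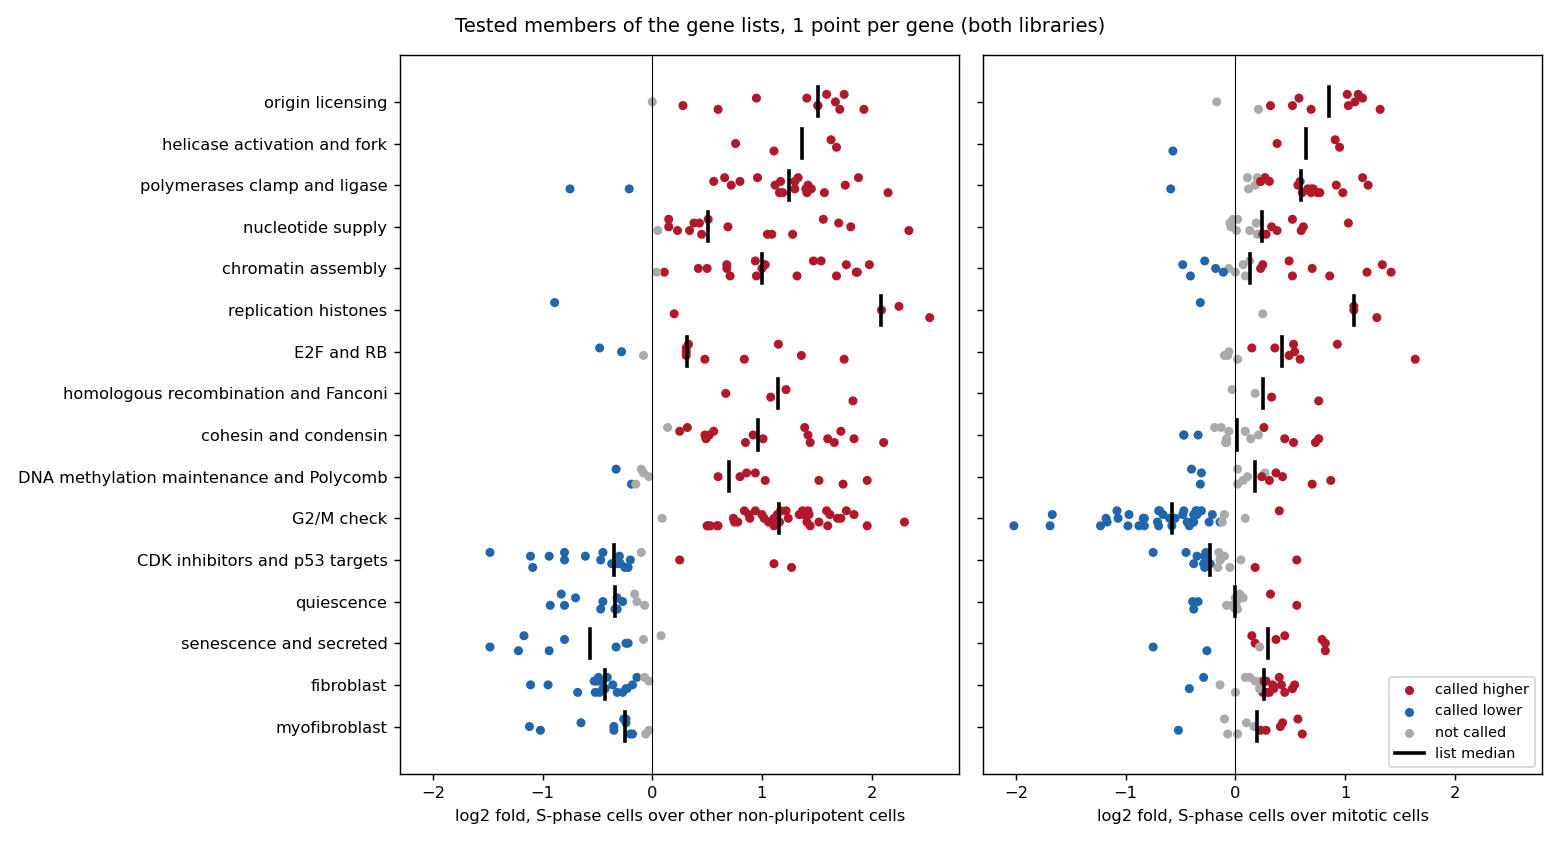
Each point is the log2 fold of 1 tested gene, over both libraries, for S-phase cells against other non-pluripotent cells (left) and against mitotic cells (right), in 16 lists (rows), with black bars for list medians. The medians of the replication lists lie above 0 on the left side, the G2/M list changes side between the comparisons from a median of 1.16 to -0.58, and the fibroblast list moves from -0.43 to 0.26.

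Regulators of entry into S phase did not move as 1 group. E2f1, an activating E2F, had 1.57 and 1.33 against 0.362 and 0.359 (log2 fold 1.75, SE 0.06, adjusted p = 3.9e-17), Mybl2 had a log2 fold of 1.36, Ccne1 1.15 and Cdc25a 0.84. Rb1, Tfdp2 and E2f4 were each higher by 0.31. D-type cyclins, which act before the restriction point, did not go one way: Ccnd2 had 6.51 and 6.6 against 10.2 and 8.28 (-0.48), Ccnd1 was lower by -0.28, and Ccnd3 was higher by 0.33. Of the 25 genes of the E2F and RB list 12 were tested, 9 were higher and 2 lower (median 0.32). Tcf19, a nuclear factor whose gene is known to rise as cells enter S phase, had the third largest increase, with 1.24 and 1.15 against 0.154 and 0.150 (2.36).

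Most CDK inhibitors and p53 targets were on the lower side. Of 20 tested genes of this list 16 were lower and 3 were higher (median -0.34). Cdkn2b, which encodes the CDK4 and CDK6 inhibitor p15, had 0.125 and 0.10 against 0.535 and 0.448 (log2 fold -1.48, SE 0.07, adjusted p = 1.7e-14), and a UMI of it was found in 53 of 305 and 42 of 295 members. Cdkn2a, at the same locus, had 0.680 and 0.483 against 1.42 and 0.996 (-0.94). Btg2, an antiproliferative p53 target, had a log2 fold of -1.11, Gadd45a -1.09, Cdkn1c -0.80 and Cdkn1a, which encodes p21, only -0.22. Other members of the INK4 family were higher: Cdkn2c had 0.776 and 0.622 against 0.232 and 0.226 (1.27), and Cdkn2d 0.779 and 0.822 against 0.304 and 0.327 (1.11). Cdkn2a also encodes Arf, and counts by gene do not tell its products apart.

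Of the 13 tested quiescence genes 10 were lower (median -0.34), among them Gas6 (-0.93), Txnip (-0.83) and Btg1 (-0.70). Against comparison cells matched on UMIs 7 of the 13 were lower (median -0.22). Against mitotic cells 2 were higher, 3 were lower and 8 were not called (median 0.0). Mxd4, which encodes a MAX partner that represses MYC targets, had 0.338 and 0.273 against 1.2 and 0.973 (log2 fold -1.55, SE 0.06). Kdm5b, a histone demethylase, had 0.182 and 0.151 against 0.541 and 0.525 (-1.25), while cells of the pluripotent gate had 2.26 and 2.46. Growth genes moved less than replication genes. Of 21 tested genes for ribosome biogenesis and growth 11 were higher and 2 lower, with a median of 0.15 and a highest log2 fold of 0.65, that of Nop56. Endogenous and transgenic Myc cannot be told apart in these counts, and Myc did not pass the test (0.125 and 0.108 against 0.150 and 0.119).

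Fibroblast genes were present but lower. The summed level of 25 fibroblast markers was 62.0 and 42.2 mean UMIs per 10000 in S-phase cells, 81.4 and 58.2 in the other non-pluripotent cells, and 7.80 and 8.33 in cells of the pluripotent gate, with none of the 25 markers at 0 in members. Col1a2, a collagen chain, had 13.8 and 6.99 against 15.2 and 8.85, and Col3a1 2.89 and 1.03 against 4.36 and 2.70 (log2 fold -0.95). Of 21 tested markers 19 were lower (median -0.43). Against comparison cells matched on UMIs 11 of the 21 were lower (median -0.18), and Col3a1 had -0.30. All 12 myofibroblast markers were tested and 10 were lower (median -0.25), led by Thbs1 (-1.12) and Mylk (-1.02). With the score taken from thinned cells 5 of the 12 were lower (median -0.21). The median over cells of their summed level was 29.3 and 20.7 in members against 34.9 and 18.6 in the others, and so not lower in replicate 2. Col1a1 differed between the libraries as well as between the cell sets, with 5.71 and 1.89 in S-phase cells and 7.43 and 3.84 in the others.

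The largest decrease was that of Spp1, osteopontin, a secreted matrix protein. It had 0.843 and 0.786 mean UMIs per 10000 in S-phase cells and 9.86 and 6.19 in the other non-pluripotent cells (log2 fold -3.11, SE 0.07, adjusted p = 2.7e-20). Few cells carried much of it: 10 cells held 23.8% and 27.2% of the summed level of the others, and the highest had 944 UMIs per 10000. Among members 10 cells held 70.8% and 74.5%. A UMI of Spp1 was found in 113 of 305 and 99 of 295 members, and in 986 of 2644 and 955 of 3222 others. The median was 0 in both sets, so the difference lay in the cells with high levels and not in how many cells had the RNA. Against cells matched on UMIs the log2 fold was -1.82. Other secreted genes on the lower side were Wfdc17 (-1.58, and -0.77 against matched cells), Cxcl12 (-1.35, matched -1.12), Gpx3 (-1.29, matched -0.43), Aspn (-1.27, matched -0.78) and Mmp11 (-1.16, matched -0.68). Of the level of Wfdc17 in the others, 10 cells held 57.9% and 60.4%. A UMI of Wfdc17 was found in 30 of 305 and 13 of 295 members, and in 269 of 2644 and 155 of 3222 others. The proteases Mmp13 and Mmp3 had -1.22 and -1.17, and against matched cells 0.04 and -0.49. Mmp3 had -1.61 in replicate 1 alone and -0.72 in replicate 2 alone, and 10 cells held 56.5% and 52.9% of its level in the others. Of 10 tested senescence and secreted genes 8 were lower (median -0.57), and 7 against matched cells (median -0.31).

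Lyz2, lysozyme, was the 1 macrophage gene expressed enough to test, with 0.00836 and 0.0116 in S-phase cells against 0.104 and 0.317 in the others (log2 fold -1.41, adjusted p = 3.6e-09). The summed level of 10 macrophage markers was 0.0343 and 0.0362 in S-phase cells and 0.399 and 0.829 in the others, and Adgre1, C1qa, C1qc and Ptprc were at 0 in members of both libraries. In the others a UMI of Adgre1 was found in 0.113% and 0.372% of cells, and of C1qa in 0.34% and 0.466%. In all, 13 cells of the series held 3 or more macrophage markers and none of them was a member. Members were 9.81% and 7.54% of the cells of replicates 1 and 2, so a 0 among 13 cells is not read as a trait. Without the 13 cells the log2 fold of Lyz2 was -0.01 and it was no longer called. Epithelial markers were low in both sets, with summed levels of 0.903 and 0.902 against 1.33 and 1.25, and the same held for 7 endothelial markers (0.162 and 0.144 against 0.136 and 0.132) and 9 trophoblast markers (0.0186 and 0.0395 against 0.0431 and 0.115). Neural markers summed to 2.33 and 2.07 against 2.19 and 1.68, and of 4 tested Sox11 was higher (0.77), Ncam1 was lower (-0.30) and 2 were not called. Of the epithelial markers 4 of 6 tested were lower and 1 was higher.

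Pluripotency genes outside the gate stayed low. The summed level of 20 such genes was 2.32 and 2.44 in S-phase cells, 1.91 and 2.14 in the other non-pluripotent cells and 67.6 and 77.3 in cells of the pluripotent gate. Pou5f1, the core pluripotency factor, had 0.0613 and 0.131 against 0.0860 and 0.156 and did not pass the test, and the gate set had 9.84 and 11.1. As with Myc, counts by gene cannot tell endogenous RNA of a reprogramming factor from RNA of the cassette. The list's strongest increase, Mybl2, is a cell-cycle gene that E2F proteins are known to induce. Among members 392 had none of the 5 gate genes above 0, 189 had 1 and 19 had 2.

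Levels changed by degrees along the score. Pclaf went from 6.62 and 8.17 in the 300 cells of highest score to 5.95 and 6.89 in the other 300 members, then to 5.28 and 5.68 and to 4.71 and 5.18 in the next 2 bands of 300 outside the set, and to 0.0960 and 0.0855 in cells with no score gene. E2f1 followed the same order, from 1.60 and 1.42 to 0.200 and 0.232. Ccnb1, the mitotic cyclin, was instead lower at the top of the score, with 0.276 and 0.324 in the first band, and highest in the last 300 of the 1200 cells of highest score, with 0.738 and 0.733. The mitotic cyclin thus peaked outside the set in both libraries. Mxd4 and Cdkn2b were highest in cells without any score gene, Mxd4 at 1.46 and 1.16 and Cdkn2b at 0.680 and 0.576. The other non-pluripotent cells are therefore a mixture that includes further cycling cells, and depth differed along the ranks too. Median UMIs lay between 17690 and 21620.5 in the 4 highest bands of each library and at 12456 and 11509.5 in cells without a score gene.

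**Figure D3:**
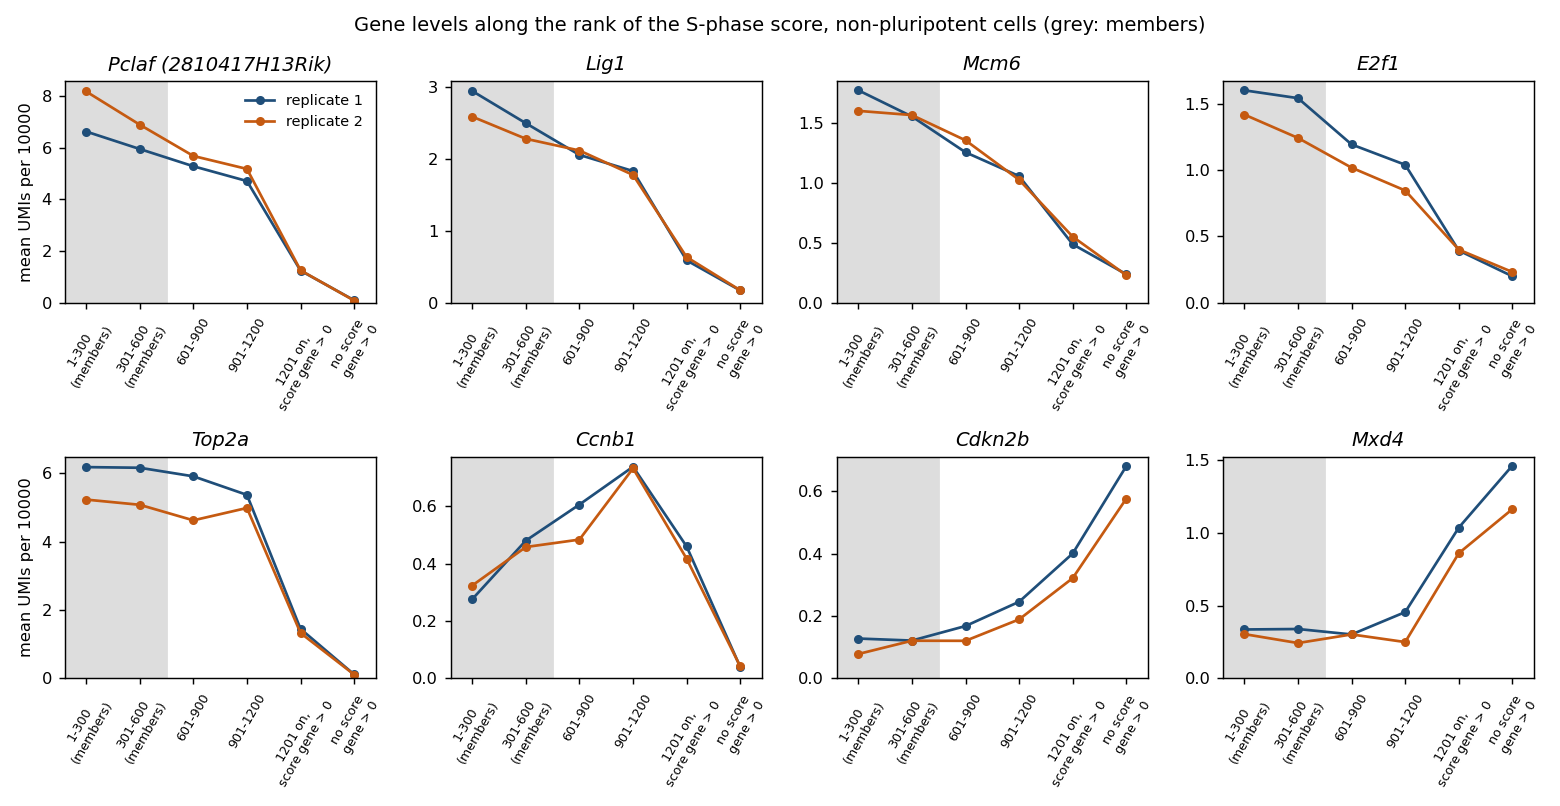
Mean UMIs per 10000 of 8 genes (vertical, linear scale from 0) are plotted for non-pluripotent cells ranked by S-phase score (horizontal, from the 300 highest to cells with no score gene), 1 line per library, with the 600 members on grey. Pclaf, Lig1, Mcm6 and E2f1 fall with rank, Top2a stays high through rank 1200, Ccnb1 peaks in the fourth band at 0.738 and 0.733, and Cdkn2b and Mxd4 are highest on the right.

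The second comparison asked which genes separate S-phase cells from mitotic cells, another cycling set. Of 7073 genes tested 754 were higher in S-phase cells (10.7%) and 882 lower (12.5%), with the 7 mitotic score genes also left out. Differences were smaller, with 23 called genes at least 2-fold higher and 20 at least 2-fold lower. Ung, the uracil glycosylase that removes uracil from new DNA, had the largest: 0.565 and 0.547 in S-phase cells, 0.0554 and 0.0494 in mitotic cells, and 0.137 and 0.148 in the other non-pluripotent cells (log2 fold over mitotic cells 2.11, SE 0.10, adjusted p = 2.2e-28 by limma). The level of Ung in mitotic cells was thus the lowest of these sets, and cells of the pluripotent gate had the highest, with 2.01 and 2.27.

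E2f1 had 1.57 and 1.33 in S-phase cells and 0.406 and 0.383 in mitotic cells (log2 fold 1.64), close to its level in the other cells. Tcf19 (1.63), Slbp (1.42), Hells (1.34), Mcm6 (1.32), Hist1h1b (1.29), Rpa2 (1.21) and Chaf1b (1.2) were next. Of 12 origin licensing genes 10 were higher than in mitotic cells (median 0.85), and of 22 polymerase, clamp and ligase genes 17 were higher and Top1 alone lower (median 0.60). Other lists were divided. Of 19 chromatin assembly genes 9 were higher and 5 lower (median 0.13), and of 18 cohesin and condensin genes 5 and 3 (median 0.01). Of 14 genes for DNA methylation maintenance and Polycomb 6 were higher and 3 lower (median 0.18). Eln, the gene for elastin, was also called (1.48), but it rested on replicate 1: it had 1.52 there and 0.0741 in replicate 2, 10 cells held 86.4% of the level in replicate 1, and the log2 fold was 2.73 in replicate 1 alone and 0.22 in replicate 2 alone.

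Cenpa, the centromeric histone, led the genes that were lower, with 1.29 and 1.30 in S-phase cells and 5.53 and 5.62 in mitotic cells (log2 fold -2.02, SE 0.06, adjusted p = 5.3e-39). Ccnb2, a mitotic cyclin, had 0.632 and 0.644 against 2.32 and 2.24 (-1.69), Pttg1, which encodes securin, had a log2 fold of -1.68, Ube2c, an enzyme of the anaphase-promoting complex, -1.67, Knstrn -1.58, Tuba1c -1.42 and Cdc25b -1.35. Some of the largest increases of the first comparison were not found against mitotic cells. Spc25 and Pbk did not pass the test here (log2 folds -0.13 and 0.03), Mki67 was lower (-0.42), and Smc2, a condensin subunit, had -0.08. Both sets also had little Mxd4, with 0.308 and 0.241 in mitotic cells, and this gene did not pass the test (0.12, adjusted p = 0.40). Cdkn2b was lower than in mitotic cells too (-0.75), as was Kdm5b (-0.80). Other CDK inhibitors went the other way, with Cdkn1c (0.56) and Cdkn1a (0.18) higher than in mitotic cells. Of 20 tested CDK inhibitors and p53 targets 11 were lower here, 2 were higher and 7 were not called (median -0.24).

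Fibroblast genes gave a different reading in this comparison, since 12 of 21 were higher than in mitotic cells and 2 were lower (median 0.26), Vim with -0.29 and S100a4 with -0.42. The median of the list was 0.41 in replicate 1 and 0.11 in replicate 2, and Col1a1 went opposite ways, with 0.70 and -0.21. Col1a2 had 13.8 and 6.99 in S-phase cells, 7.66 and 6.10 in mitotic cells and 15.2 and 8.85 in the others. Among 12 myofibroblast markers 6 were higher than in mitotic cells and 1 was lower (median 0.20). Among 10 senescence and secreted genes 7 were higher than in mitotic cells. The comparisons share the S-phase cells, and mitotic cells are part of the other non-pluripotent cells in the first one. The chosen mitotic cells had medians of 22411.5 and 21160 UMIs, more than S-phase cells, and the part of depth in these differences was not tested.

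Members were not uniform. The 86 that were also among the 600 highest mitotic scores, 42 in replicate 1 and 44 in replicate 2, had 0.0355 and 0.0149 mean UMIs per 10000 of Ung, whereas the other members had 0.649 and 0.640. E2f1 had 0.789 and 0.503 in these cells and 1.70 and 1.47 in the other members. Other replication genes had nearer levels, with 1.35 and 1.32 against 1.72 and 1.63 for Mcm6 and 1.37 and 1.11 against 1.19 and 0.967 for Hist1h1b. Ccnb2 had 1.62 and 1.74 against 0.474 and 0.453, and Top2a 9.88 and 8.14 against 5.58 and 4.63. Without cells of high mitotic score on either side, the log2 fold of Top2a over the other non-pluripotent cells was 2.98 in place of 2.30, and all 27 tested S-phase genes were still called higher. The split was made by measured values and is a description.

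**Figure D4:**
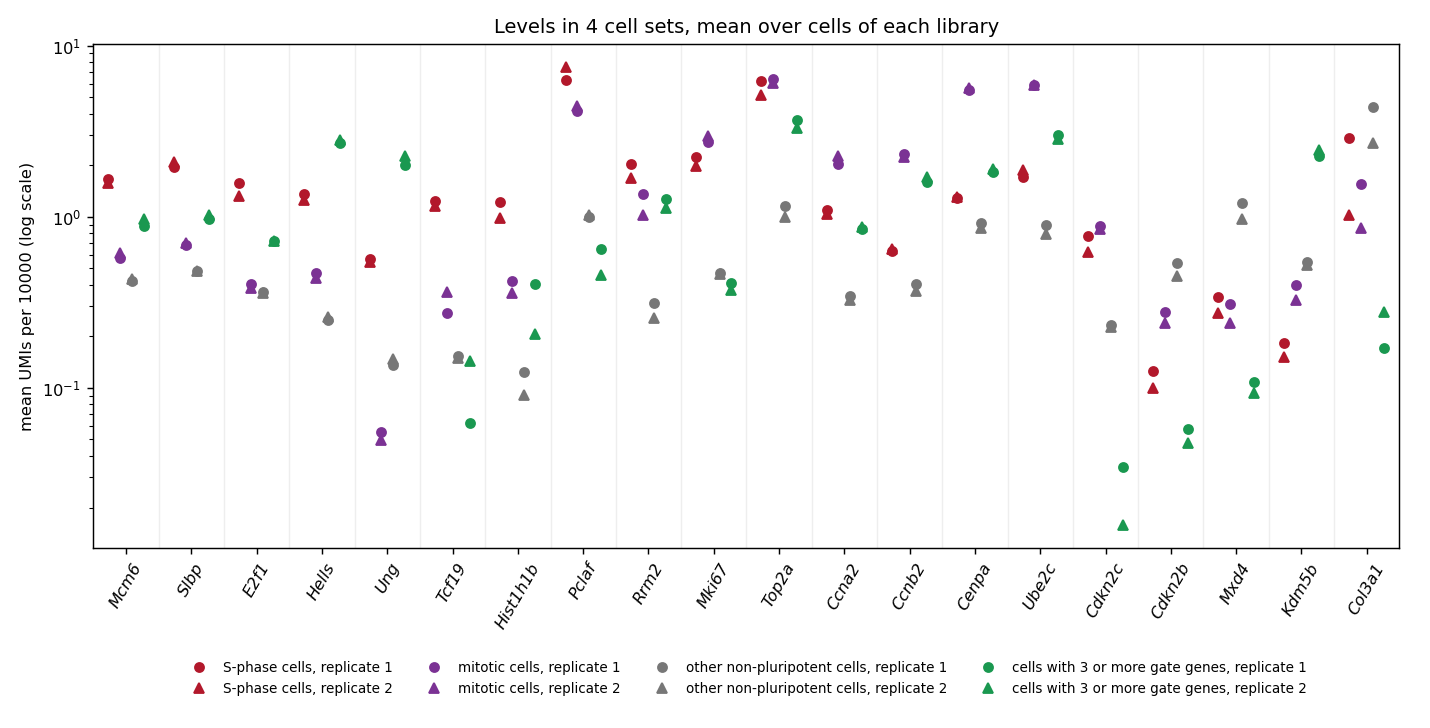
Mean UMIs per 10000 (vertical, log scale) of 20 genes in 4 cell sets, with circles for replicate 1 and triangles for replicate 2. Symbols of the same set lie close for most cell-cycle genes, Ung is lowest in mitotic cells (0.0554 and 0.0494) and highest in cells of the pluripotent gate (2.01 and 2.27), and Cenpa, Ccnb2 and Ube2c are highest in mitotic cells.

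Cells of the pluripotent gate gave a further view of the same genes, as values without a test. Their summed level of 36 S-phase genes was 27.3 and 26.4 mean UMIs per 10000, close to the 29.6 and 27.9 of S-phase cells and above the 7.37 and 7.22 of the other non-pluripotent cells. Individual genes departed from this. Hells (2.70 and 2.79), Nasp (3.01 and 2.55) and Gmnn (2.00 and 1.88) stood above S-phase cells, while Tcf19 (0.0625 and 0.144), Mki67 (0.410 and 0.371) and Cdkn2c (0.0346 and 0.0158) stood below the other non-pluripotent cells. Neil3, a score gene, had 0.0504 and 0.0753 there, against 0.0647 and 0.0644 in the other non-pluripotent cells and 0.864 and 0.992 in S-phase cells. The other 6 score genes stood between those 2 sets, as did Dtl with 0.689 and 0.617 and Clspn with 0.223 and 0.252. Few cells of the pluripotent gate had a high score although their summed S-phase genes were at a similar level.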

How the data were processed

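Unsorted day 16 cells of STEMCCA reprogramming were profiled by droplet 3′ RNA-seq in 2 libraries. According to the study's methods and the submitters' processing notes, the authors obtained counts with Cell Ranger (version 2.1.1, mm10), filtered cells by detected genes and mitochondrial RNA, and normalised in Seurat. What they deposited is the natural log of 1 plus UMIs per 10000. After exponentiation the sum per cell was 10000, and within 0.01 all nonzero values (100%) were integer multiples of the lowest one in the cell. Totals were 54145377 and 64654306 UMIs. No count model was used, since the deposited unit is a log.

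A profile was the mean over the cells of a set and library of linear values per 10000. Differences were tested over 4 profiles with limma (version 3.58.1, R version 4.3.3), with terms for set and library and a trend, on log2(mean + 0.1), where the mean reached 0.1, at an adjusted p of 0.05. Sharing of the spread among genes gave 23.5 and 65.8 degrees of freedom in the 2 comparisons. Folds on this scale understate those of low genes. The test was first tried on simulated data. Same-numbered sets come from the same library, so the library is a block by design.

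The members, the gene lists and the tests were chosen with earlier results of these data known. Named genes were the 20 with the largest increase and 15 with the largest decrease among those called, with the same sign in both libraries, the 10 largest in each direction against mitotic cells, and list members. Eln, Samhd1, the cells of high score in both programmes and the promoter letters were singled out after values had been seen. Gene positions are GENCODE M21 on GRCm38. Alternatives covered pseudocounts, filters, depth-matched cells, other numbers of cells, thinning and leaving out a library. Those without members of high mitotic score or without macrophage-marked cells were added after seeing the data. The cell sets, promoter searches and plots were made in Python 3.11.15 with pandas 2.3.3, numpy 2.4.6, matplotlib 3.10.9 and scipy 1.17.1. Some genes are not reported here.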

Additional observations from a re-analysis of the deposited data

How the results depend on the processing

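Counts of called genes depended on the fit more than directions did. Without the replicate block, which removes the pairing of sets within a library, 798 genes were higher and 594 lower than in the other non-pluripotent cells, and 159 higher and 208 lower than in mitotic cells; 14 of 112 named genes were then no longer called in the first comparison, Col3a1, Thbs1 and Mmp13 among them, and Eln in the second. With a minimum mean of 0.5, which leaves fewer genes, the first comparison gave 628 higher and 666 lower. Against cells matched on UMIs 1051 genes were lower.

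Counts of genes past 2-fold depended on the pseudocount, as its construction implies for low genes. In the first comparison 161 higher genes became 13 with a pseudocount of 1, 38 with the minimum of 0.5 and 96 with matched cells; 30 lower genes became 125 with a pseudocount of 0.01, 1 with a pseudocount of 1, 16 with the minimum of 0.5, 17 with pooled UMIs and 8 with matched cells. Against mitotic cells 23 higher genes became 51 with 0.01 and 0 with 1, and 20 lower genes became 43 with 0.01, 3 with 1, 40 with 300 mitotic cells and 36 without cells high in both scores. In single libraries the first comparison gave 161 to 167 and 26 to 41 such genes, the second 20 to 30 and 23.

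Named genes turned direction in 4 cases: Mmp13 (0.04) and Cdc25b (-0.03) against matched cells, Epcam (0.06) with a gate of 0 pluripotency genes and Stmn2 (-0.18) with 1200 cells. Apart from fits of 1 library, named genes of the first comparison kept direction and call in 1688 results, lost the call in 26 and gained it in 1; in the second they kept both in 99 and lost the call in 1. The causes were not tested. With matched cells the S-phase list gave 27 of 27 higher and the CDK inhibitor list 15 of 20 lower. With 2 libraries, the precision rests on their number, and genes under the minimum mean, many repair genes among them, were not tested at this depth.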
